A study of Homo sapiens with 17 samples.

Results

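Expression of 9 enzymes of eicosanoid metabolism was followed as human endothelial cells gave rise to blood cells in culture: PTGS1, PTGS2, PTGIS, PTGES and TBXAS1 of prostanoid synthesis, ALOX5, ALOX5AP and LTC4S of leukotriene synthesis, and HPGD of prostaglandin inactivation. They were taken by symbol, matched to the Ensembl identifiers of the tables, and are 9 of 61162 identifiers in all. The genes were chosen by symbol with expression levels and fold changes of these libraries already known, and it is not recorded which comparison led to the choice. The fits below therefore place each gene among all genes tested and are a description of these libraries, not independent evidence.

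All cells descend from the embryonic stem cell line H1 and were endothelial cells sorted as positive for eGFP expressed with GATA2, which codes for a regulator that blood-forming endothelium needs. Such endothelium releases blood cells when it is re-plated, a step called the endothelial-to-hematopoietic transition. The series asks how vitamin C, which keeps iron-dependent demethylases of chromatin active, acts on this step. Cells had been derived with vitamin C (Vc+) or without it (Vc-), at a dose that is not given in the sources used here, and there were 17 libraries. Sorted cells had 2 Vc+ libraries and 2 Vc- libraries. A course after re-plating had 1 Vc+ and 1 Vc- library at each of 0, 24, 36, 48 and 60 h, and the labels describe its libraries from 24 h on as mixtures of endothelial and blood cells. Blood cells in suspension at 96 h and at 60 h, and the adhered mixture at 60 h, had 1 library each, all Vc+. All libraries derive from the same line, so spread between lines is not covered, and no label gives separate cultures for libraries of the same group.

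Eicosanoids are short-lived lipid signals made from arachidonic acid. The cyclooxygenases PTGS1 (COX-1, usually constitutive) and PTGS2 (COX-2, usually induced) make prostaglandin H, which terminal synthases turn into single prostanoids: PTGIS makes prostacyclin in vessel walls, TBXAS1 makes thromboxane in platelets and macrophages, and PTGES makes prostaglandin E. In leukocytes ALOX5, with its helper ALOX5AP, starts the leukotrienes, and LTC4S adds glutathione to give leukotriene C. HPGD oxidises prostaglandins and so ends their signal. Prostaglandin E is known from zebrafish and mouse work to raise blood stem cell numbers.

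The count libraries held 6214675 to 11058345 reads in genes, so that 3 reads, taken here as the limit that a count of 0 allows, stand for 0.271 to 0.483 CPM (the count relative to the library total). All 6 endothelial markers (CDH5, PECAM1, KDR, TEK, EMCN and ESAM) had reads in all 13 count libraries, and all 5 of them that the sorted-cell tables list were above 0 there. Their sum was 801 CPM in suspended cells at 96 h and 1618 CPM at 60 h, against 8174 CPM in adherent cells. At 96 h PECAM1 made up most of it, with 559 CPM against 1154 CPM in adherent cells. CDH5 had 4.25 CPM there against 1347 CPM in adherent cells, and KDR 81.1 CPM against 4699 CPM. The 6 megakaryocyte markers summed to 3837 and 1010 CPM in suspended cells at 96 h and 60 h, against 47.55 CPM in adherent cells, where PPBP was at 0. The 5 erythroid markers summed to 9666 and 774.5 CPM in the same suspended libraries, against 8.993 CPM in adherent cells. Of the 9 genes, PTGS1, PTGS2, TBXAS1 and HPGD had reads in all 13 count libraries, and the other 5 never exceeded 38 reads in a library.

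The promoters of those 4 well-measured genes are shown because PTGS1 and PTGS2 make the same product but had opposite levels in suspended and adherent cells, TBXAS1 was high in suspended cells at 96 h, and HPGD differed most steadily between Vc+ and Vc- cells. Each line gives the 250 bases before the transcription start listed by RefSeq (GRCh38.p14), read along the gene's strand. They lie at chr9:122370283-122370532 (plus strand), chr1:186680424-186680673 (minus strand), chr7:139829014-139829263 (plus strand) and chr4:174522489-174522738 (minus strand). Capitals mark matches on either strand to the letters TGTGGT of a RUNX motif, the letters AGATAA of the motif of GATA factors, the letters GAGGAA of a PU.1 motif or the letters TATAAA of a TATA box, and no matches overlapped.
PTGS1: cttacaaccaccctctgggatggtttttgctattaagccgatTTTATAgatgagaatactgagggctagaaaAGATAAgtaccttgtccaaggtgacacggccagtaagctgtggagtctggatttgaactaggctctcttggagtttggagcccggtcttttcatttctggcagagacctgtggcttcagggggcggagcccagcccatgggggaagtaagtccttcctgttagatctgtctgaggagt
PTGS2: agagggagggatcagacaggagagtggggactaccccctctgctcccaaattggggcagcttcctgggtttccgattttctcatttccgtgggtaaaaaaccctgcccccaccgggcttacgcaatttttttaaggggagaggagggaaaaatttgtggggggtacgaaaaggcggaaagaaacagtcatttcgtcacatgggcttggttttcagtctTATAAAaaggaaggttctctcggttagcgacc
TBXAS1: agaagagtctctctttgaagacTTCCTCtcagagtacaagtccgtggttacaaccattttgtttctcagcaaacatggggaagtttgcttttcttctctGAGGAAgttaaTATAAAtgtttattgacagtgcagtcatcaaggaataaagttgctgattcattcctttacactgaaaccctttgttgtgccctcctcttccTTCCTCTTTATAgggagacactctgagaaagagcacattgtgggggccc
HPGD: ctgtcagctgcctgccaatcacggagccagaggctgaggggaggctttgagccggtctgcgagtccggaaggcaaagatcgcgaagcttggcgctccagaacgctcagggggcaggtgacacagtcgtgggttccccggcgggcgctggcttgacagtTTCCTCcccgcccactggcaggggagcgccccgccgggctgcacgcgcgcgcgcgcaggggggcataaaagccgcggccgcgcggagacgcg

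The PTGS1 window holds a GATA motif that begins 178 bases before the start and a reversed TATA box 208 bases before it. The PTGS2 window holds a single match, a TATA box 32 bases before the start. The TBXAS1 window holds 3 PU.1 motifs, which begin 228, 151 and 49 bases before the start, and 2 TATA boxes, and the HPGD window holds 1 PU.1 motif at 92 bases. PTGS1 and HPGD have 2 starts each in the table, of which the first listed is shown, and the windows of TBXAS1 and HPGD lie within their longer GENCODE genes. Of the 9 genes, 7 matched the table, all but PTGIS and ALOX5. Among these 7 a GATA motif was found in 2, a PU.1 motif in 4, a TATA box in 3 and a RUNX motif in 1. Over all 35116 promoters of the table the shares were 9.17% for the GATA motif, 23.6% for PU.1, 10.7% for the TATA box and 11% for RUNX. A match is a run of letters and not a measured site.

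PTGS1 (ENSG00000095303, chromosome 9, 122370530 to 122395703 on GRCh38, GENCODE 29) was lower in Vc+ than in Vc- endothelial cells at the outset, and the order turned round after re-plating. In sorted cells it had 12.9 and 36.1 TPM (a level per transcript length) in the Vc+ libraries of replicates 1 and 2, against 50.3 and 122 TPM in the Vc- libraries. The Vc+ library was the lower within each replicate number, at 0.256 and 0.297 times the Vc- level. The means were 24.5 ± 16.4 TPM in Vc+ and 85.9 ± 50.4 TPM in Vc- cells (SD, n = 2 each). By limma across all genes the log2 difference was -1.81 ± 0.62 (SE) with an adjusted p of 1. The test called 0% of 14421 genes in either direction, with 313 at an unadjusted p under 0.05.

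The groups of the sorted cells were read from the sample titles, whereas the descriptions give both libraries of replicate 1 as Vc- and both of replicate 2 as Vc+. Grouped that way, the log2 difference of PTGS1 has the opposite sign, 1.34 ± 0.69 with a limma adjusted p of 0.304. Titles and descriptions do not conflict for the course, and at its 0 h time PTGS1 had 61.5 CPM in the Vc+ library against 268 CPM in the Vc- library, 0.229 times as much (log2 -2.12, 95% counting interval from -2.26).

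After re-plating, PTGS1 in Vc+ cells had 61.5, 22.2, 24.8, 37.7 and 60.9 CPM at 0, 24, 36, 48 and 60 h. In Vc- cells it had 268, 50.6, 28.3, 25.0 and 30.3 CPM at the same times. The Vc+ level was thus lowest at 24 h, with a counting interval that overlaps that of 36 h. By 60 h it returned to a value whose counting interval overlaps that of 0 h, while the Vc- level dropped after 0 h and stayed low. The log2 ratio of Vc+ over Vc- (0.5 CPM added) went through -2.12, -1.17, -0.19, 0.58 and 1.00 at the 5 times, so that Vc+ was the lower at 0, 24 and 36 h and the higher at 48 and 60 h. At 36 h the counting intervals overlapped (21.6 to 28.5 CPM in Vc+ and 24.9 to 32.1 CPM in Vc- cells).

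**Figure D1:**
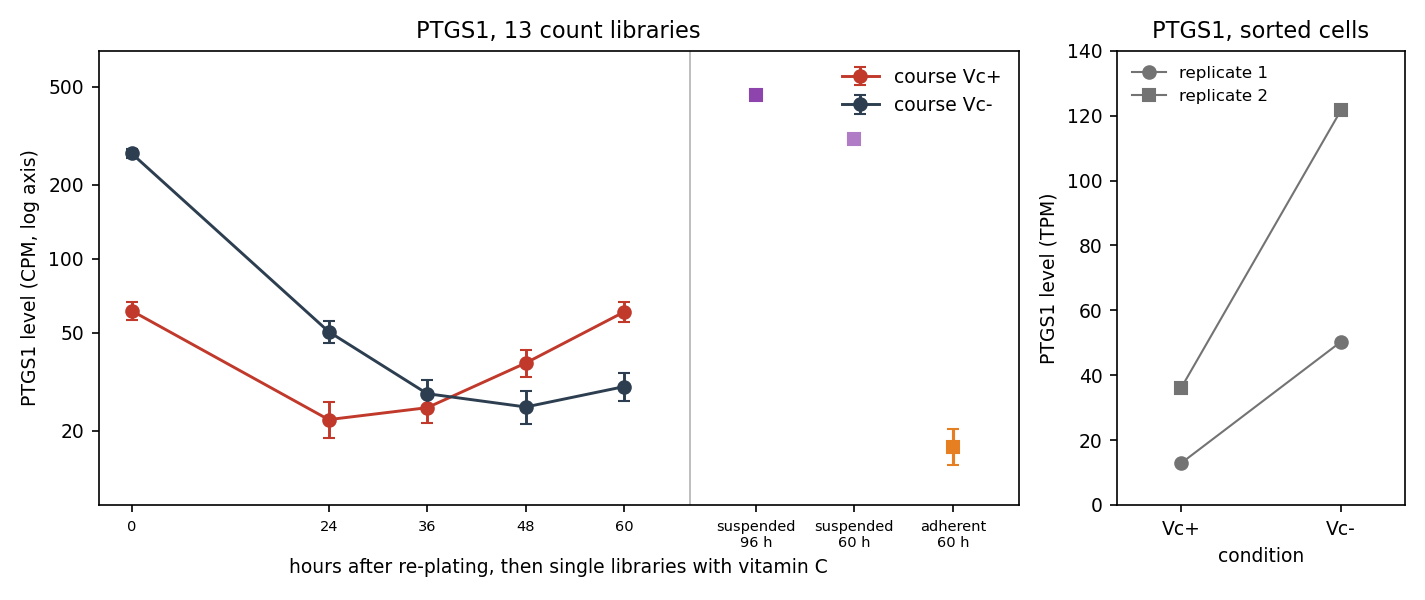
PTGS1 in every library. Left, CPM on a log axis against hours after re-plating for the Vc+ and Vc- course, then the suspended libraries at 96 h and 60 h and the adherent library at 60 h, with bars for the exact 95% Poisson interval of a single library; right, TPM of the sorted cells, with a line joining libraries of the same replicate number. The course lines cross between 36 and 48 h, and the suspended libraries (464 and 306 CPM) stand far above the adherent one (17.2 CPM).

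A straight line over hours, scaled to a change over 60 h, gave PTGS1 a slope of -3.32 ± 0.66 (log2, SE) in Vc- cells and of -0.06 ± 0.67 in Vc+ cells. By edgeR's quasi-likelihood test the Vc- slope passed the threshold (adjusted p = 0.0246) and the Vc+ slope did not (adjusted p = 0.985). In Vc- cells 2.15% of the 16276 genes tested rose and 2.13% fell; of the 4 genes of this list that passed the filter on low counts, TBXAS1 and HPGD rose and PTGS1 fell. In Vc+ cells 0.915% rose and 0.86% fell, and none of the 4 was called. The difference between the PTGS1 slopes was 3.26 ± 0.95 (unadjusted p = 0.00652, edgeR adjusted p = 1), in a test that called 0% of genes, with 473 at an unadjusted p under 0.05 and 11 called by DESeq2. The Vc- slope rests on the first library: without Vc- 0 h it was -1.24 (edgeR adjusted p = 0.56), without Vc- 48 h it was -3.19 (edgeR adjusted p = 0.0788), and with time ranks in place of hours it was -3.09 (edgeR adjusted p = 0.0638). Without the 0 h pair the PTGS1 slope in Vc+ cells was 2.48 ± 0.48 and passed the threshold (edgeR adjusted p = 0.00462).

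Averaged over the 5 times, PTGS1 had a log2 vitamin C effect of -0.44 ± 0.35 (edgeR adjusted p = 0.573), a mean of ratios of opposite sign. That fit called 2.5% of genes higher and 3.37% lower in Vc+ cells, and 1 of the 4 tested members, HPGD, was among those higher. Without the 0 h pair the PTGS1 value was 0.07, and with no filter on low counts the value was -0.43 with an edgeR adjusted p of 0.00113.

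PTGS1 was higher in suspended blood cells than in adherent cells and than in every course library. It had 464 CPM in suspended cells at 96 h and 306 CPM at 60 h, against 17.2 CPM in the adherent library at 60 h. The suspended library at 60 h was thus 17.7 times as high as the adherent one (log2 4.15, 95% counting interval 3.90 to 4.40), and no counting interval of these 3 libraries overlapped another. The adherent library in turn had 0.283 times the 60.9 CPM of the Vc+ course library at 60 h. In such bulk samples fewer cells of a type and less RNA per cell cannot be told apart. Across the 13 count libraries the order of PTGS1 was suspended 96 h, suspended 60 h, Vc- 0 h, then Vc+ 0 h and Vc+ 60 h, which did not differ beyond counting error, and the adherent library was the lowest, with an interval that overlaps that of Vc+ 24 h.

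Sums of blood cell markers moved with PTGS1 in some libraries and not in others. The megakaryocyte, leukocyte, erythroid, myeloid and mast cell or basophil sums all rank the suspended and adherent libraries in the same order as PTGS1. The erythroid sum was 9666, 774.5 and 8.993 CPM in suspended cells at 96 h, at 60 h and in adherent cells. In that order the myeloid sum was 252.5, 214 and 22.3 CPM, and the mast cell and basophil sum 166.5, 50.74 and 1.725 CPM. In the Vc+ course the sum of the 6 megakaryocyte markers was 36.05, 31.06, 58.76, 98.66 and 194.7 CPM from 0 to 60 h. The 5 leukocyte markers summed to 1257 and 712.5 CPM in suspended cells at 96 h and 60 h, against 68.87 CPM in adherent cells, where PTPRC was at 0. The part of these cells in the PTGS1 level was not tested. At 0 h, where PTGS1 was 61.5 CPM in Vc+ and 268 CPM in Vc- cells, the megakaryocyte sum was 36.05 CPM in Vc+ cells, where PPBP was at 0, and 30.25 CPM in Vc- cells, where GP9 and PPBP were at 0. The leukocyte sum there was 85.75 CPM in Vc+ and 55.45 CPM in Vc- cells. Neither the megakaryocyte nor the leukocyte sum was higher in the library with more PTGS1, nor was the myeloid sum (16.07 CPM in Vc+ and 12.67 CPM in Vc- cells). The sum of 5 erythroid markers was higher there, at 13.57 CPM in Vc- and 6.084 CPM in Vc+ cells. That of mast cell and basophil markers, at 1.81 CPM in Vc- and 1.607 CPM in Vc+ cells, rested on at most 7 reads per gene. These are too few to rank the libraries. The part of any of these cells in the 0 h difference of PTGS1 was not tested.

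PTGS2 (ENSG00000073756, chromosome 1, 186671791 to 186680427) had much lower levels and ran the other way between suspended and adherent cells. It had 0.995 CPM (11 reads) in suspended cells at 96 h and 5.17 CPM at 60 h, against 15.5 CPM in adherent cells. The suspended library at 60 h had 0.333 times the adherent level, with a 95% counting interval of the log2 ratio from -2.16 to -1.04. The adherent library had 2.36 times the 6.59 CPM of the Vc+ course library at 60 h. In the course PTGS2 had 8.72, 12.2, 8.48, 4.43 and 6.59 CPM in Vc+ cells, against 19.0, 13.8, 8.98, 8.80 and 8.15 CPM in Vc- cells, at 0, 24, 36, 48 and 60 h. The Vc+ library was the lower at all 5 times, but at 24, 36 and 60 h the counting intervals of Vc+ and Vc- overlapped. The effect, -0.53 ± 0.19, did not pass the threshold (edgeR adjusted p = 0.144). In sorted cells PTGS2 had 10.6 and 16.0 TPM in Vc+ libraries, against 12.7 and 15.8 TPM in Vc- libraries, which overlap.

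Divided by exonic length, the cyclooxygenases were about equal in adherent cells and far apart in suspended cells. The level of PTGS1 in CPM per kb was 425 times that of PTGS2 in suspended cells at 96 h and 53.7 times at 60 h, against 1.01 times in adherent cells. In the course the ratio was 6.42, 1.65, 2.67, 7.75 and 8.41 in Vc+ cells, against 12.8, 3.32, 2.87, 2.59 and 3.38 in Vc- cells, at 0, 24, 36, 48 and 60 h. PTGS1 exceeded PTGS2 per length in all 10 course libraries, most of all in Vc- cells at 0 h. In the sorted cells the ratio of TPM values was 1.22 and 2.25 in Vc+ libraries, against 3.97 and 7.71 in Vc- libraries of replicates 1 and 2, and was the lower in Vc+ within each replicate number.

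**Figure D2:**
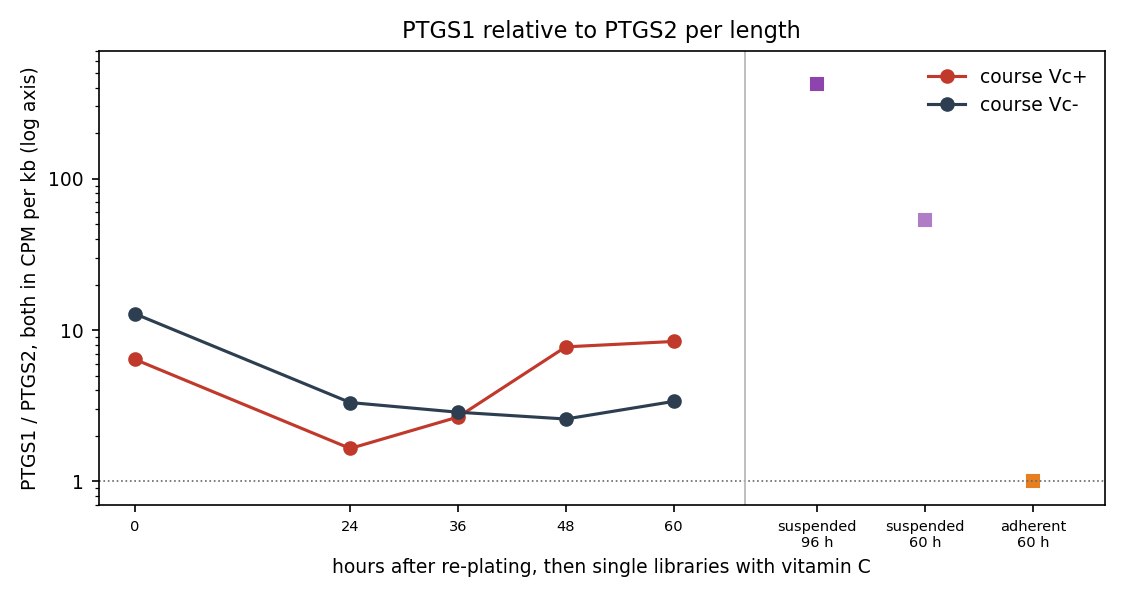
Ratio of PTGS1 to PTGS2, both in CPM per kb of exonic length, on a log axis against hours after re-plating for the Vc+ and Vc- course, then for the suspended libraries at 96 h and 60 h and the adherent library at 60 h. The dotted line marks equal levels, on which the adherent library lies (1.01), while the suspended libraries reach 425 and 53.7.

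TBXAS1 (ENSG00000059377, chromosome 7, 139777051 to 140020325), the thromboxane synthase, was highest in the latest suspended cells. It had 47.0 CPM in suspended cells at 96 h and 13.1 CPM at 60 h, against 11.8 CPM in adherent cells. The 96 h library was 3.60 times as high as the suspended library at 60 h, whereas the 60 h suspended library and the adherent one did not differ beyond counting error (1.11-fold, 95% interval of the log2 ratio -0.28 to 0.57). PTGS1, whose product TBXAS1 uses, was 1.52 times as high at 96 h as at 60 h in suspension (log2 0.60, or 0.82 with TMM scaling). Over the same libraries the megakaryocyte sum was 3837 CPM at 96 h and 1010 CPM at 60 h, the sum of 5 erythroid markers was 9666 CPM at 96 h and 774.5 CPM at 60 h, and their part in the TBXAS1 level was not tested.

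In the course TBXAS1 had 7.35, 7.72, 7.51, 9.77 and 13.9 CPM in Vc+ cells, against 2.97, 4.97, 7.28, 6.64 and 13.7 CPM in Vc- cells, at 0, 24, 36, 48 and 60 h. The Vc- library was the lower beyond counting error at 0 h, and at each later time the counting interval of the ratio included equal levels. The slope in Vc- cells was 2.05 ± 0.42 (edgeR adjusted p = 0.0275) and that in Vc+ cells 0.85 ± 0.39 (edgeR adjusted p = 0.372), and the difference, -1.21 ± 0.57, did not pass (edgeR adjusted p = 1). The call in Vc- cells was lost without Vc- 0 h (edgeR adjusted p = 0.156), without Vc- 60 h (edgeR adjusted p = 0.206) and without Vc+ 48 h (edgeR adjusted p = 0.0539). Over all times vitamin C had an effect of 0.46 ± 0.21 on TBXAS1 (edgeR adjusted p = 0.263). In sorted cells TBXAS1 had 3.16 and 5.43 TPM in Vc+ libraries, against 3.78 and 5.40 TPM in Vc- libraries.

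HPGD (ENSG00000164120, chromosome 4, 174490177 to 174523154), the enzyme that inactivates prostaglandins, was higher in Vc+ cells throughout the course. It had 7.12, 4.34, 15.3, 31.3 and 31.8 CPM in Vc+ cells, against 0.388 (3 reads), 1.05, 6.37, 15.6 and 12.2 CPM in Vc- cells, at 0, 24, 36, 48 and 60 h. The Vc+ library was the higher at 5 of 5 times, and from 24 h on by 4.16, 2.40, 2.01 and 2.61 times. The effect was 1.54 ± 0.27 on the log2 scale and passed the threshold (edgeR adjusted p = 0.00447, DESeq2 adjusted p = 0.00492). It stayed past the threshold without any 1 of the 10 libraries (edgeR adjusted p between 0.00014 and 0.0173) and without the 0 h pair (1.29 ± 0.17, edgeR adjusted p = 0.000231), but not in a fit with no term for time (1.33 ± 0.81, edgeR adjusted p = 0.999).

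HPGD also rose with hours. Its slope was 5.55 ± 1.12 in Vc- cells (edgeR adjusted p = 0.026) and 2.63 ± 0.80 in Vc+ cells (edgeR adjusted p = 0.152, DESeq2 adjusted p = 0.0472). The slope difference of -2.93 ± 1.39 did not pass (edgeR adjusted p = 1). The Vc- call was lost without Vc- 0 h (edgeR adjusted p = 0.162) and without Vc- 48 h (edgeR adjusted p = 0.0566), and the Vc+ slope passed without the 0 h pair (4.33 ± 1.08, edgeR adjusted p = 0.0198).

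Suspended cells had less HPGD than adherent cells did, and the 96 h library had the least of these 3. HPGD had 4.88 CPM in suspended cells at 96 h and 17.7 CPM at 60 h, against 33.3 CPM in adherent cells. The adherent level did not differ beyond counting error from the 31.8 CPM of the Vc+ course library at 60 h. The suspended library at 60 h had 0.531 times the adherent level, a ratio that passes 2-fold only with TMM scaling (log2 -1.01). In sorted cells HPGD had 73.4 and 2.85 TPM in Vc+ libraries, against 15.1 and 2.39 TPM in Vc- libraries of replicates 1 and 2. The replicates differed from each other far more than the conditions did, and the log2 difference of 1.20 ± 1.48 did not pass (limma adjusted p = 1). Without Vc+ replicate 1 it had the opposite sign, -0.94 (limma adjusted p = 0.832).

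**Figure D3:**
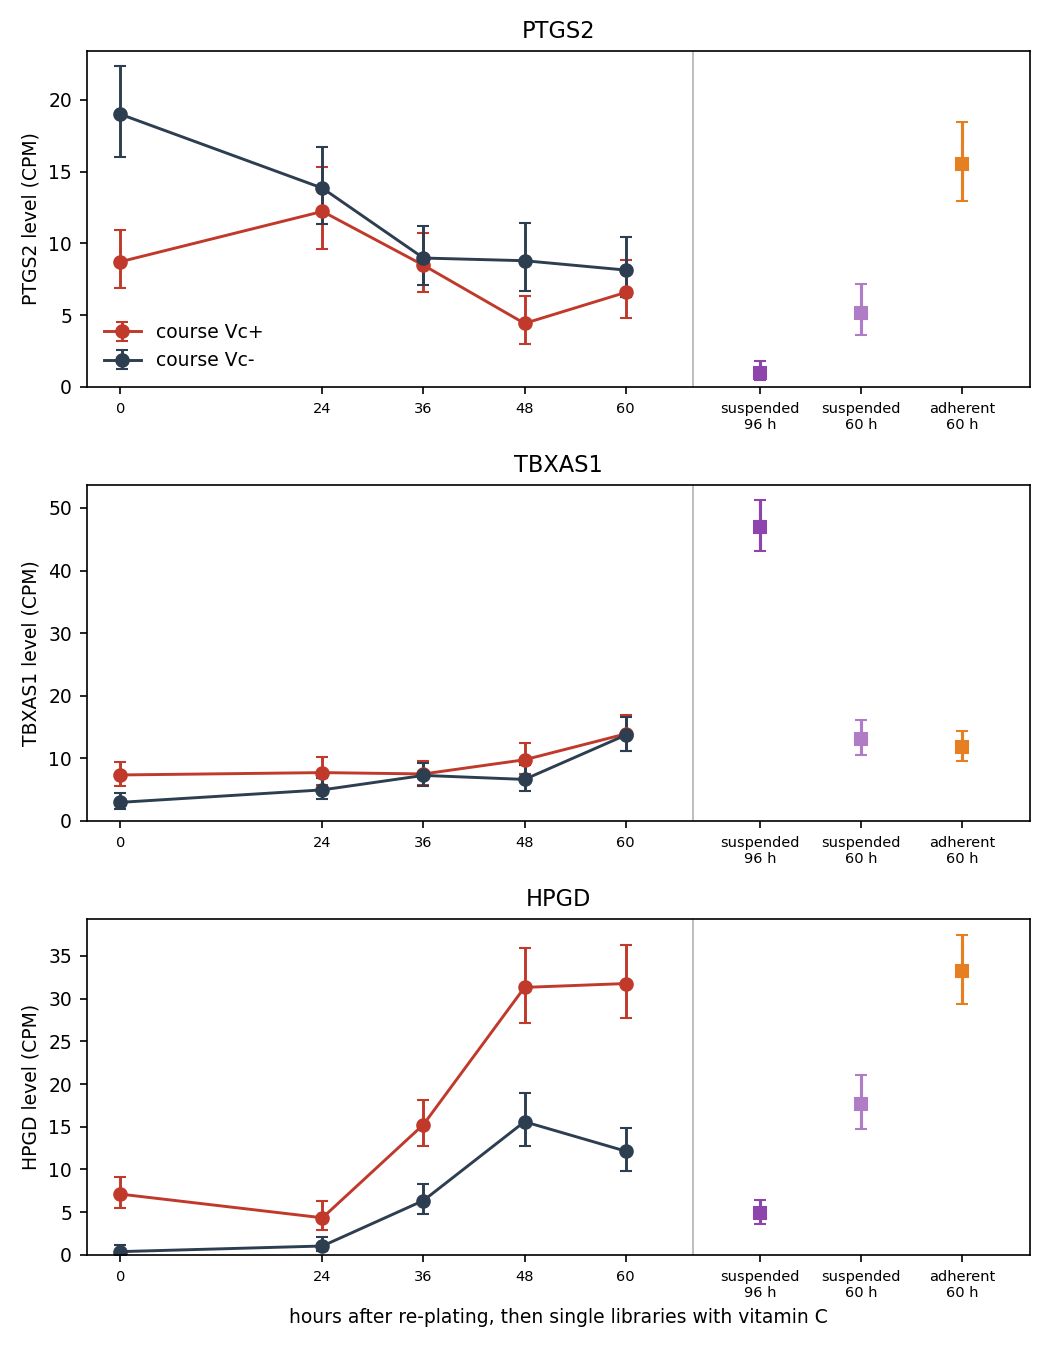
PTGS2, TBXAS1 and HPGD in the 13 count libraries, in CPM from 0, against hours after re-plating for the Vc+ and Vc- course and then for the suspended libraries at 96 h and 60 h and the adherent library at 60 h. Bars are exact 95% Poisson intervals of single libraries; PTGS2 and HPGD are low and TBXAS1 is high (47.0 CPM) in suspended cells at 96 h, and the Vc+ line of HPGD lies above the Vc- line at all 5 times.

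**Figure D4:**
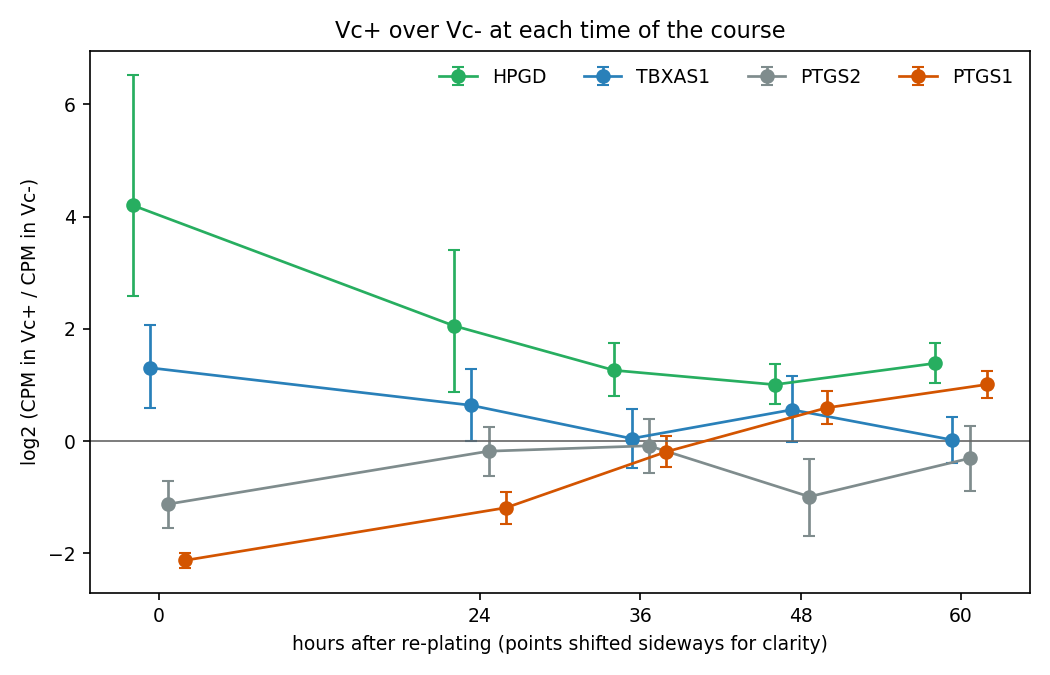
Log2 ratio of CPM in Vc+ over CPM in Vc- at each time of the course for HPGD, TBXAS1, PTGS2 and PTGS1, with nothing added to the CPM and bars for the exact 95% counting interval of 2 single libraries. HPGD lies above the zero line at all 5 times, and PTGS1 moves from -2.12 at 0 h to 1.01 at 60 h. The points of PTGS2 lie below the line, but its Vc+ and Vc- levels overlap in counting interval at 24, 36 and 60 h.

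Set side by side, single libraries differed by more than 2-fold in both directions among these genes. Of the 4 genes with at least 1 CPM in suspended or adherent cells at 60 h, PTGS1 was past 2-fold higher and PTGS2 past 2-fold lower in suspended cells, where 14.3% of 16562 genes were higher and 15.7% lower. Of the 5 measured in suspension, TBXAS1 and LTC4S were past 2-fold higher and PTGS2 and HPGD lower at 96 h than at 60 h, where 7.15% of genes were higher and 13.4% lower. Between the adherent library and the Vc+ course library at 60 h, PTGS2 was past 2-fold higher and PTGS1 lower in the adherent library, where 2.37% and 4.11% of genes were. These ratios come from 1 library each and have no replicate check.

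The remaining prostanoid synthases were close to the limit of detection. PTGIS (ENSG00000124212, chromosome 20), the prostacyclin synthase, had 6 reads in Vc+ cells at 0 h against 38 reads in Vc- cells at 0 h, or 0.689 CPM against 4.91 CPM. It had at most 3 reads in any later library and none in the suspended and adherent ones. The Vc+ library at 0 h had 0.140 times the Vc- level, with a 95% counting interval of the log2 ratio from -4.37 to -1.58. In sorted cells PTGIS had 0.53 and 0.46 TPM in Vc+ libraries, against 1.48 and 1.47 TPM in Vc- libraries, a log2 difference of -0.73 ± 0.43 on the log2(TPM + 1) scale (limma adjusted p = 1). By the titles, PTGIS and PTGS1 were thus the lower in Vc+ cells in both sets of endothelial libraries. PTGES (ENSG00000148344, chromosome 9), an inducible prostaglandin E synthase, had 2, 0, 0, 0 and 0 reads in the Vc+ course, against 6, 3, 3, 2 and 4 reads in the Vc- course, and none in suspended or adherent cells. The sums were 2 reads over 5 Vc+ libraries and 18 reads over 5 Vc- libraries, and neither PTGES nor PTGIS passed the filter for the course test.

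The leukotriene genes had very few reads, and only for LTC4S did most of them come from suspended cells at 96 h. LTC4S (ENSG00000213316, chromosome 5) had 35 reads (3.17 CPM) in suspended cells at 96 h and 4 reads (0.575 CPM) at 60 h, against 0 in adherent cells and at most 3 in any course library. The 96 h level was 5.51 times that at 60 h in suspension, with a 95% counting interval of the log2 ratio from 0.98 to 4.41. ALOX5AP (ENSG00000132965, chromosome 13) had 5 and 4 reads in suspended cells at 96 h and 60 h, at most 1 read in the other count libraries, and was listed at 0 TPM in all 4 sorted libraries. ALOX5 (ENSG00000012779, chromosome 10) had 13 reads in Vc+ cells at 0 h, 4 reads in suspended cells at 96 h and none in the other 11 count libraries, while in sorted cells it had 0.89 and 2.87 TPM in Vc+ libraries, against 2.04 and 2.37 TPM in Vc- libraries. The suspended library at 96 h had 4, 5 and 35 reads of ALOX5, ALOX5AP and LTC4S. It was also the deepest library, and its 0.362 CPM of ALOX5 lies under the 0.431 CPM that a count of 0 allows in suspended cells at 60 h, so a difference in ALOX5 between them was not detectable at this depth. In the 96 h library mast cell and basophil markers summed to 166.5 CPM, with TPSAB1 at 0. HDC (82.6 CPM) and SRGN (79.9 CPM) made up most of that sum. MS4A2 had 0.904 CPM, and CPA3 had 3.08 CPM against 3.88 CPM in suspended cells at 60 h. Myeloid markers summed to 252.5 CPM at 96 h, with AIF1 and CD14 at 0. The part of such cells in the leukotriene gene reads was not tested. AIF1 was at 0 in all 13 count libraries but at 13.9 to 42.5 TPM in the 4 sorted libraries, and TPSAB1 was at 0 in all 17, so neither 0 separates these cells from the others.

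**Figure D5:**
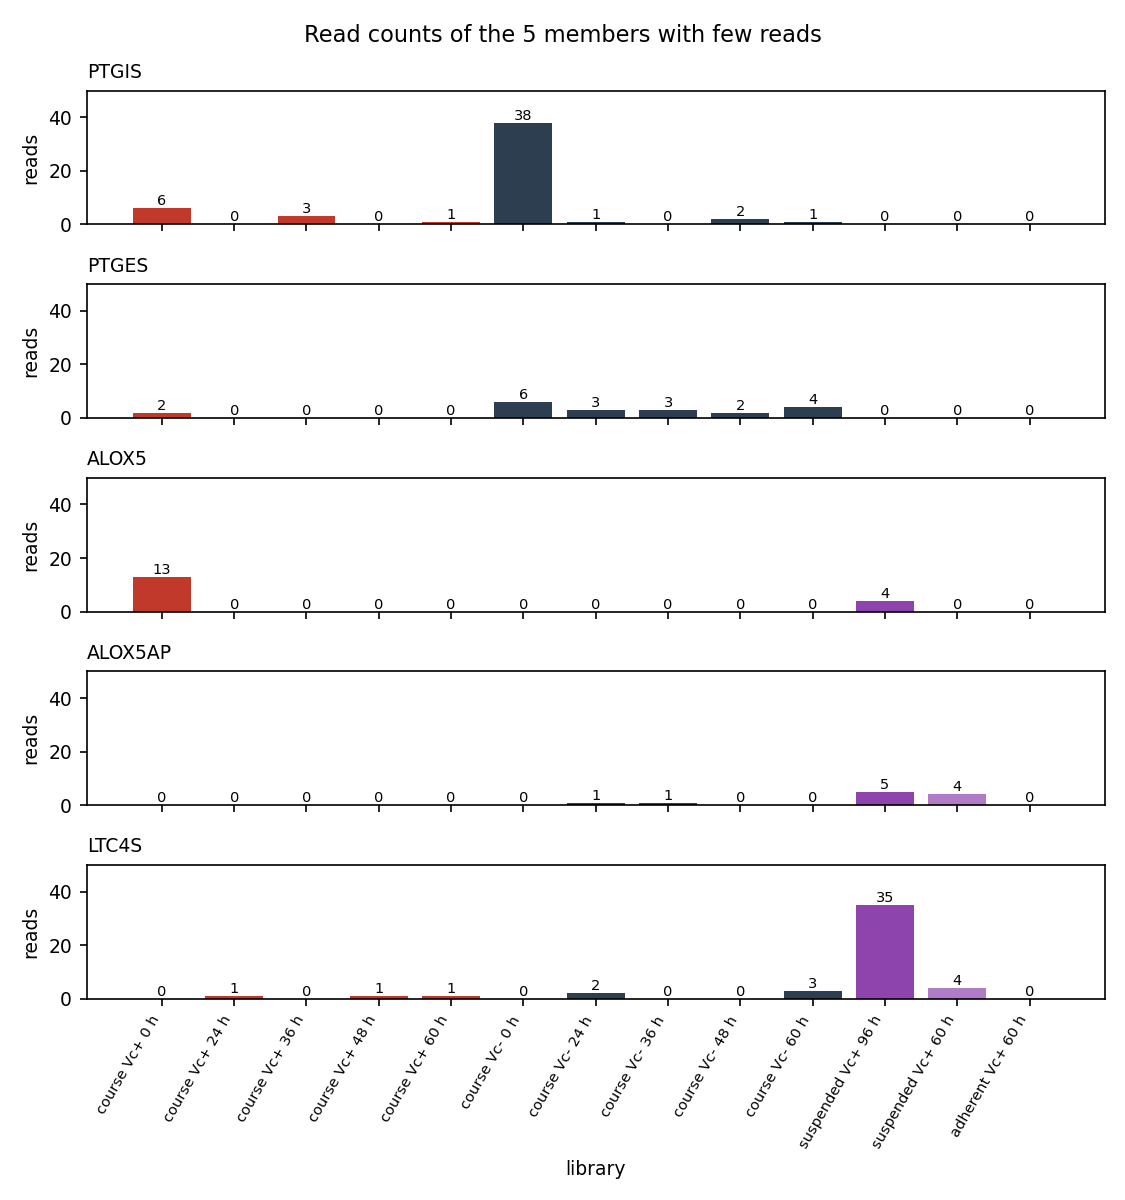
Reads of PTGIS, PTGES, ALOX5, ALOX5AP and LTC4S in each of the 13 count libraries, as bars from 0 with the number above each: the Vc+ course, the Vc- course, the suspended libraries at 96 h and 60 h and the adherent library at 60 h. The tallest bars are PTGIS in Vc- cells at 0 h (38 reads) and LTC4S in suspended cells at 96 h (35 reads).

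The rest of the pathway was described with 58 further genes, from phospholipases to receptors, of which 35 passed the filter for the course tests. For vitamin C over the course 2 of the 35 rose and none fell, near the 2.5% and 3.37% over all genes tested, and the median log2 effect was 0.13 beside 0.01 over all genes. TBXA2R, the thromboxane receptor, was 1 of them: it had 49.5, 69.8, 59.2, 46.0 and 46.0 CPM in Vc+ cells, against 21.1, 44.8, 46.3, 23.6 and 31.7 CPM in Vc- cells, an effect of 0.72 ± 0.12 (edgeR adjusted p = 0.00325), higher at 5 of 5 times. In sorted cells it had 51.1 and 40.1 TPM in Vc+ libraries, against 27.4 and 18.2 TPM in Vc- libraries, so that by the titles the receptor was the higher and PTGS1 the lower in Vc+ cells. ALOX15, a lipoxygenase, was the other: it had 1.03, 15.0, 11.1, 9.16 and 2.93 CPM in Vc+ cells, against 1.55, 5.10, 2.84, 1.85 and 1.29 CPM in Vc- cells (1.46 ± 0.34, edgeR adjusted p = 0.0233). That call was lost on leaving out any 1 of the libraries at 24, 36 and 48 h of either condition (edgeR adjusted p between 0.0891 and 0.139).

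With hours, 1 of the 35 genes fell in Vc+ cells and 2 fell in Vc- cells, and none rose. Over all genes tested 0.86% fell and 0.915% rose in Vc+ cells, and 2.13% fell and 2.15% rose in Vc- cells, so these counts are near the background. AKR1C3, an aldo-keto reductase that makes prostaglandin F, had 50.4 CPM at 0 h and 1.32 to 2.60 CPM later in Vc+ cells, against 37.9 CPM at 0 h and 0.617 to 2.62 CPM later in Vc- cells. Its slopes were -5.49 ± 1.11 in Vc+ (edgeR adjusted p = 0.0414) and -5.04 ± 1.11 in Vc- cells (edgeR adjusted p = 0.0348), and -0.20 and -1.14 without the 0 h pair. The call in Vc+ cells was also lost without any 1 of Vc+ 36, 48 or 60 h and Vc- 36 or 48 h, and that in Vc- cells without any 1 of Vc- 36 or 48 h and Vc+ 48 h. ABCC4, an exporter of prostaglandins and cyclic nucleotides, had a slope of -1.35 ± 0.29 in Vc- cells (edgeR adjusted p = 0.0328), which became -0.56 without Vc- 0 h (edgeR adjusted p = 0.563) and also lost the call without Vc- 36 h, Vc- 48 h, Vc- 60 h or Vc+ 48 h. ABCC4 shared the contrast of PTGS1 between suspended and adherent cells, with 636 and 479 CPM in suspended cells at 96 h and 60 h, against 40.5 CPM in adherent cells.

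Between suspended and adherent cells at 60 h, 11 of the 35 further genes with at least 1 CPM were past 2-fold higher and 7 lower, a median log2 ratio of 0.32, beside 14.3% higher and 15.7% lower over all genes compared. ALOX12, the platelet 12-lipoxygenase, is given here after its values were seen: it had 96.6 and 18.8 CPM in suspended cells at 96 h and 60 h, against 2.71 CPM in adherent cells. By mean level the leading genes of their lists were ACSL4 and LPCAT3 (arachidonate storage), PTGES3 and AKR1B1 (prostanoid enzymes), LTA4H and MGST3 (leukotriene enzymes), EPHX2 and EPHX1 (epoxide hydrolases), ABCC4 and PTGR1 (transport and inactivation), TBXA2R and PTGER3 (prostanoid receptors), and LTB4R and LTB4R2 (leukotriene receptors). Of these 14 only TBXA2R was called for vitamin C over the course, and the effects of the others lay between -0.44 ± 0.20 for EPHX2 and 0.38 ± 0.14 for ABCC4. The sorted-cell values can rank genes otherwise. MBOAT7 of the arachidonate list, also given after its values were seen, had a mean of 1.03 CPM in the count libraries. In sorted cells its means were 217 TPM in Vc+ and 327 TPM in Vc- cells, against 40.1 and 47.7 TPM for ACSL4.

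Among 9690 named genes with at least 20 CPM in some library, those most like each gene were found by Pearson's r of log2(CPM + 0.5) over the 13 count libraries, which share their line, kit and the strong contrast of the suspended cells. PTGS1 was most like GAD1, a glutamate decarboxylase (r = 0.960, and 0.898 over the 10 course libraries alone), then PDXP-DT and NSMF (0.955 and 0.954). GAD1 itself had 514 CPM in suspended and 59.5 CPM in adherent cells at 60 h. PTGS2 was most like JUN, an immediate-early AP-1 subunit (0.943), then PIP5K1A and MYRF (0.933 and 0.926). HPGD was most like PLXDC2 (0.941, and 0.942 over the course alone), then COX11 and PLA2G12A, a secreted phospholipase (0.906 and 0.896). TBXAS1 was most like ULK3, GSAP and TANGO2 (0.935, 0.934 and 0.934). LTC4S was most like GUCD1, DMTN and SUCNR1 (0.954, 0.949 and 0.946), but over the course alone these were 0.750, 0.494 and 0.265. PTGIS was most like PELI2, ZNF451 and OSBPL9 (0.908, 0.894 and 0.879). It had 38 reads in Vc- and 6 reads in Vc+ cells at 0 h and at most 3 elsewhere, so these values rest mainly on the 0 h libraries.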

How the data were processed

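RNA of 17 libraries was extracted with Trizol and, starting from 1 µg each, prepared with TruSeq chemistry, per the labels' protocols. HTSeq 0.6.0, HISAT2 2.0.4, DESeq 1.18.1, SAMtools 1.3.1 and the build hg38 (GRCh38) appear in the submitters' processing notes, with no role. The authors deposited raw read counts for 13 libraries (58302 identifiers) and, for the 4 sorted libraries, values read as TPM from their sums (995020 to 996531); how the authors made these TPM is not stated and their depth is unknown. The strand of counting is not stated, but no exon of the 9 genes overlaps another gene in GENCODE 29.

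Course counts were fitted with edgeR 4.0.16 (R 4.3.3, TMM, filterByExpr, quasi-likelihood) with time as a factor, or with 1 line per condition over hours, scaled to 60 h. Sorted cells were fitted with limma 3.58.1 (trend) on log2(TPM + 1), for genes with at least 1 TPM in 2 libraries; this scale understates changes of low genes. Tests were two-sided, adjusted by Benjamini-Hochberg over all genes, with a threshold of 0.05, and were checked on simulated data. With 1 library per condition and time, and nothing naming separate cultures, p-values measure only the spread between these libraries. Single libraries were compared as CPM of the library total (0.5 CPM added, at least 1 CPM in the higher library, 2-fold) with exact Poisson or binomial 95% intervals; intervals and limits cover counting error only.

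The 9 genes and the lists were chosen with earlier results of these data known. All 9 are described. Of the 58 pathway genes, those called in a course test and the 2 highest per list are named. Marker lists are given as sums, with single markers, named after their values were seen, where a few carry the sum. The 3 genes most like each gene with at least 20 reads in a library are also given. Alternatives were DESeq2 1.42.0 and its size factors, no filter, leaving out libraries, no time term, time ranks, other pseudocounts (0.1 and 5 TPM, 5 CPM), TMM-scaled ratios, the descriptions' groups and a replicate block. Promoters are RefSeq's (GRCh38.p14). Reporter-negative cells were not analysed here.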

Additional observations from a re-analysis of the deposited data

How the results depend on the processing

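Depth limits PTGIS, PTGES, ALOX5, ALOX5AP and LTC4S, and no group of the course, of the suspended or of the adherent cells has a second library. The vitamin C effect over the course called 955 genes and 1 of the 9 (HPGD); no filter gave 1591 and 2 (PTGS1 added), no term for time 20 and 0, and leaving out 1 library 505 to 1209 and 1. The change with hours in Vc+ cells called 289 genes and 0 of the 9; DESeq2 gave 712 and 1 (HPGD), no filter 438, time ranks 92, leaving out the 0 h pair 1814 and 2 (PTGS1 and HPGD), and leaving out 1 library 9 (without Vc+ 0 h) to 680 (without Vc- 0 h). PTGS1 reversed there without the 0 h pair (2.48, against -0.06). The change with hours in Vc- cells called 697 genes and 3 of the 9; DESeq2 gave 1284, leaving out the 0 h pair 2545, and leaving out 1 library 151 (without Vc- 0 h) to 1097 (without Vc+ 0 h) and 0 (without Vc- 0 h) to 3. The difference in slope called 0 genes, 11 by DESeq2 and 1 without the 0 h pair. The test of sorted cells called 0 genes, 156 with the descriptions' groups, and 0 to 1 leaving out 1 library. Causes of these changes were not tested.

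The replicate numbers of the sorted cells are not said to mark anything shared. Same-numbered libraries deviated together (correlation 0.565, which 2 numbers per group make the same for both). With the number as a replicate block, limma still called 0 genes and 0 of the 9 (1237 genes at an unadjusted p under 0.05), and the PTGS1 value of -1.81 had an SE of 0.22 and an adjusted p of 0.55. Added pseudocounts of 5 CPM brought the log2 ratios of low genes nearer to 0, to -1.01 for PTGS2 in suspended over adherent cells and to 0.55 for LTC4S at 96 h over 60 h.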
